A study of Mus musculus with 14 samples.

Results

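The sarcomere is the contractile unit of striated muscle, and 54 genes that encode its parts other than the myosin heavy chains were followed through 12 lists of MyoD and MyoG binding sites in mouse muscle stem cells. The genes were taken by name from a fixed list of thin filament, thick filament, M-band and Z-disc proteins with their assembly factors, and every peak that the study's annotation gave to 1 of them was kept. They held 69 of the 10303 peaks and were 54 of 21900 protein-coding genes in the RefSeq table. The rule itself uses no binding value, but the list was put together with earlier results of these data known.

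Thin filaments of actin, tropomyosin and troponin slide along thick filaments of myosin when muscle contracts, while titin spans from the Z-disc, where thin filaments are anchored, to the M-band. These proteins are made in quantity once myoblasts withdraw from the cell cycle and fuse. MyoD and MyoG (myogenin) are basic helix-loop-helix transcription factors that bind short DNA motifs called E-boxes, and MyoD acts earlier than MyoG in the muscle lineage.

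The cells came from adult wild-type mice that carried a mito-Dendra2 allele switched on by Pax7-Cre(ERT2), so that only cells with Pax7 promoter activity during tamoxifen dosing (75 mg/kg, 5 daily doses) and their descendants were labelled. Tibialis anterior muscle was injured with 50 uL of 1.2% BaCl2, and the muscle of the other leg received saline. At 2 days after injury, quiescent stem cells (QSCs; CD34+, Dendra2+) were sorted from saline-injected muscle and activated stem cells (ASCs; CD34-, Dendra2+) from injured muscle. All groups thus shared the genotype, the label and tamoxifen, and differed in injury, in the CD34 gate and in the antibody used for chromatin immunoprecipitation and sequencing (ChIP-seq). Strain, exact age and whether animals were pooled are not given in the sources used here. Each of the 4 groups (ASC MyoD, ASC MyoG, QSC MyoD, QSC MyoG) had 3 libraries, numbered as replicates in the sample titles. The study calls them biological replicates, and the labels do not say whether each came from a separate animal. Peak lists measure no expression, and the identity of the cells was therefore not checked against marker genes.

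MyoD peaks at sarcomere genes were found in ASCs and in no QSC library. In ASC MyoD, 15 of the 54 genes were given peaks by 2 or 3 of the libraries, or 27.8% (95% Wilson interval 17.6 to 40.9%, counting error only), beside 6.34% of protein-coding genes. These were Actn2, Des, Flnc, Lmod2, Mybpc1, Mybph, Myl1, Mylpf, Neb, Smyd1, Synpo2, Tmod1, Tnnt3, Tpm2 and Ttn. With a peak in at least 1 library counted, 23 genes were bound (42.6%, against 10.7% of protein-coding genes), and with all 3 libraries required, 13 genes (24.1%, against 3.9%). Among genes with a peak in any of the 12 lists, 15 of 24 sarcomere genes and 39.4% of all 4385 gene names were bound in at least 2 ASC MyoD libraries. As the list was put together with earlier results of these data known, its share was given no p-value.

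Each ASC MyoD library on its own showed the higher share. Replicate 1 had a peak at 19 of the 54 genes, replicate 2 at 14 and replicate 3 at 18. These were 35.2%, 25.9% and 33.3% of the list (mean 31.5% ± 4.90, SD, n = 3), whereas 7.60%, 6.54% and 6.80% of protein-coding genes had a peak in the same libraries (mean 6.98% ± 0.549). The lowest sarcomere share was above the highest share of all genes.

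**Figure D1:**
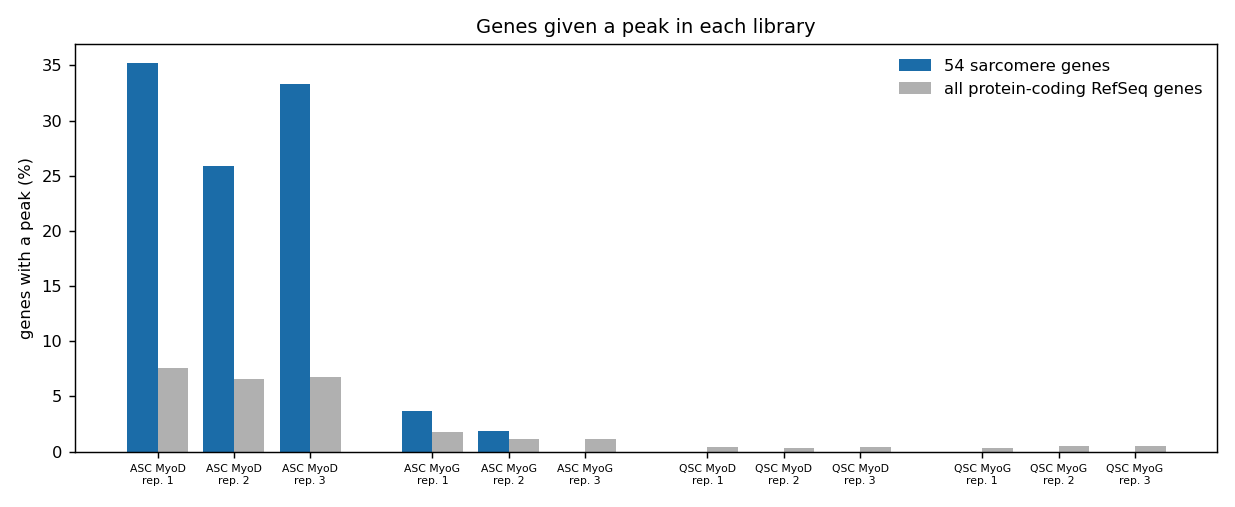
Percent of genes given a peak (vertical axis) in each of the 12 libraries, for the 54 sarcomere genes (blue bars) and all protein-coding RefSeq genes (grey bars). The sarcomere bars stand at 25.9 to 35.2% in the 3 ASC MyoD libraries, at 0 to 3.70% in ASC MyoG and at 0 in all 6 QSC libraries.

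QSC lists were short. They held 171, 139 and 174 MyoD peaks and 120, 162 and 167 MyoG peaks, of which 0 lay at a sarcomere gene, while 0.0731% of protein-coding genes had a peak in at least 2 QSC MyoD libraries and 0.0502% in at least 2 QSC MyoG libraries. Sarcomere genes took 0.867%, 0.840% and 1.05% of all peaks in ASC MyoD replicates 1, 2 and 3 (mean 0.918% ± 0.112, SD, n = 3). For a share of 0, the upper 95% Wilson bound was 2.20%, 2.69% and 2.16% in the QSC MyoD libraries and 3.10%, 2.32% and 2.25% in the QSC MyoG libraries. A share like that of ASC MyoD was therefore not detectable as different in lists of this length. Read depth is unknown for every library, and fewer reads alone can give fewer peaks.

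Few MyoG peaks lay at these genes in ASCs, and few protein-coding genes of any kind had one. The 3 ASC MyoG lists held 916, 605 and 639 peaks, of which 2, 1 and 0 lay at a sarcomere gene. Genes with such a peak were 3.70%, 1.85% and 0% of the list, beside 1.73%, 1.10% and 1.17% of protein-coding genes. The share at sarcomere genes was thus near that of all genes. Nebl, which encodes nebulette, a nebulin relative known from the cardiac Z-disc, was the sole gene with a MyoG peak in 2 libraries (1.85% of the list, against 0.489% of protein-coding genes), and its peaks did not overlap. Replicate 1 placed a distal intergenic peak outside the RefSeq span of Nebl, at chr2:17317913-17318415 (score 55.3). Replicate 2 placed one in intron 4 of 6 at chr2:17446685-17447195 (score 54.4). Trim55, a ubiquitin ligase of the M-band, had a single MyoG peak in exon 5 of 10 (replicate 1, chr3:19670647-19671296, score 64.3).

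Merging peaks that overlapped by at least 1 bp gave 30 ASC MyoD regions at sarcomere genes, most of them present in more than 1 library. A peak was present in 3 libraries at 16 of them (53.3%), in 2 at 4 (13.3%) and in 1 at 10 (33.3%). Over all 4100 ASC MyoD regions these shares were 27%, 21.4% and 51.6%. The 20 regions with a peak in at least 2 libraries are called consensus regions here. Of the 15 bound genes, 5 (Des, Flnc, Lmod2, Myl1 and Neb) had a pair of consensus regions, or 33.3%, beside 17.1% of the 1624 genes with any consensus region.

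In 5 genes, Des, Mybpc1, Smyd1, Tpm2 and Ttn, peaks of at least 2 libraries crossed the 250 bases just before an annotated gene start. These windows are shown because they lie at a promoter proper, though not every crossing peak covers the whole window. The sequences are from the RefSeq promoter table of GRCm38.p6 (mm10), read 5′ to 3′ on the strand of the gene, and capitals mark E-boxes (CANNTG, which reads the same on both strands). The windows are chr1:75360042-75360291 (+) for Des, chr10:88605153-88605402 (-) for Mybpc1, chr6:71262282-71262531 (-) for Smyd1, chr4:43523555-43523804 (-) for Tpm2 and chr2:76982548-76982797 (-) for Ttn.
Des: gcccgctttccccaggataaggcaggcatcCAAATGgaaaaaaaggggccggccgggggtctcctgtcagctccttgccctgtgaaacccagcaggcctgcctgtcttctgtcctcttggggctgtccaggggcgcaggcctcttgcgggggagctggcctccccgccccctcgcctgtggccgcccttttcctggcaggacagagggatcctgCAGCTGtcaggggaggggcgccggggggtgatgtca
Mybpc1: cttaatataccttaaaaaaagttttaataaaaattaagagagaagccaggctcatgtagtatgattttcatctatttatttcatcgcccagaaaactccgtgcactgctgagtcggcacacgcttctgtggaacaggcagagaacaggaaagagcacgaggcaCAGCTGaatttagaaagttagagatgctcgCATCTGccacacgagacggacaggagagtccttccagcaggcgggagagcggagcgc
Smyd1: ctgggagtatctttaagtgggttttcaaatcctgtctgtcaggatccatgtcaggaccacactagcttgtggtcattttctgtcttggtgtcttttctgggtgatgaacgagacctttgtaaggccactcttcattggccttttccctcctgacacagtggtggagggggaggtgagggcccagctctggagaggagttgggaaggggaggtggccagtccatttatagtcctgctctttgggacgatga
Tpm2: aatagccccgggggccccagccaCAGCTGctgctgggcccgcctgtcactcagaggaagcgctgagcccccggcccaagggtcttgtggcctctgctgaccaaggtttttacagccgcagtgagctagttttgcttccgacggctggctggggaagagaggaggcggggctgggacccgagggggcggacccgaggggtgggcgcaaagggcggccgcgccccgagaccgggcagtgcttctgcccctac
Ttn: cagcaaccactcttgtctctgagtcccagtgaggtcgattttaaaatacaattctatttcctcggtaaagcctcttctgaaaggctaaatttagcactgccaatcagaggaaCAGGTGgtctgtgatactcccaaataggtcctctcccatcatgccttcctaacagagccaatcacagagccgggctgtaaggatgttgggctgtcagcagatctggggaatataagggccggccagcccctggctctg
Des held 2 E-boxes, whose first bases lie 220 and 36 bases before the gene start, and the nearer one has the form CAGCTG. Mybpc1 held CAGCTG at 87 and CATCTG at 57 bases before the start, Tpm2 held CAGCTG at 227 bases and Ttn held CAGGTG at 138 bases. No E-box letters are in the Smyd1 window. The windows were covered in full by every crossing peak at Des and Tpm2, and over at least 159 bases at Mybpc1, 111 at Smyd1 and 69 at Ttn. At Ttn, peaks of 2 libraries crossed the window, and the one that covered 69 bases did not reach the E-box. That E-box thus lay in the peak of 1 library alone.

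Thin filament genes had 5 of 17 members bound in at least 2 ASC MyoD libraries (Neb, Tnnt3, Tpm2, Lmod2 and Tmod1), 3 in 1 library and 9 in none. In what follows, the score of a peak is minus 10 times the log10 of its p-value as the study lists it, and a score of 50 is a p-value of 1e-05. Neb (ENSMUSG00000026950) encodes nebulin, the giant protein that runs along the thin filament. Its promoter region at chr2:52334987-52336292 scored 90.6, 61.5 and 57.5 in replicates 1, 2 and 3 (mean 69.8 ± 18.1, SD, n = 3). A further region in intron 10 of 156 (chr2:52318747-52319605) scored 70.8, 61.0 and 65.2 (mean 65.6 ± 4.94). Both had scores below 100 and were present in every library.

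Tpm2 (ENSMUSG00000028464), beta-tropomyosin, had a promoter region at chr4:43523240-43524389, centred at -0.261 kb from the gene start (the nearest start in the RefSeq promoter table, with negative values upstream). It scored 55.8, 90.4 and 119 in replicates 1, 2 and 3 (mean 88.4 ± 31.6), so that its score differed widely between libraries. Tnnt3 (ENSMUSG00000061723), the fast-fibre troponin T, was at the lower end, with 64.5 in replicate 1 and 62.9 in replicate 3 and no peak in replicate 2 (chr7:142499639-142500701, promoter, mean 63.7 ± 1.10, n = 2). Lmod2 (ENSMUSG00000029683) encodes leiomodin-2, which nucleates actin and lengthens thin filaments. The region annotated as its promoter (chr6:24599190-24600442, +2.05 kb) scored 84.8, 102 and 132 (mean 106 ± 23.9), and a distal region at -10.8 kb (chr6:24586552-24587487) scored 62.7, 52.8 and 109 (mean 74.8 ± 29.9). In both Lmod2 regions replicate 3 was highest. Tmod1 (ENSMUSG00000028328), the tropomodulin that caps the free end of the thin filament, had a region in intron 7 of 9, +56.2 kb from its start (chr4:46094807-46096031), with scores of 70.2, 117 and 87.6 (mean 91.7 ± 23.9).

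Of thick filament genes, 4 of 8 were bound (Myl1, Mylpf, Mybpc1 and Mybph), and the other 4 had no peak. Myl1 (ENSMUSG00000061816), the fast essential light chain of myosin, had a region in intron 1 of 6 (chr1:66940663-66941616, +3.92 kb) that scored 70.2, 111 and 113 in replicates 1, 2 and 3 (mean 98.0 ± 24.1). A distal region at +22.8 kb (chr1:66921753-66922689) scored 68.3 and 77.1 in replicates 2 and 3 and was the sole consensus region at these genes with no peak in replicate 1. Mylpf (ENSMUSG00000030672), the fast regulatory light chain, had an even promoter region at -1.07 kb (chr7:127210074-127211002) with scores of 79.4, 74.9 and 91.6 (mean 82.0 ± 8.61).

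The other 2 thick filament genes encode myosin-binding proteins. Mybpc1 (ENSMUSG00000020061), the slow-type myosin-binding protein C, was bound across its start (chr10:88604642-88605613, +0.0245 kb) with 84.5, 76.1 and 53.3 in replicates 1, 2 and 3 (mean 71.3 ± 16.1), and replicate 3 held a further peak at -26.7 kb (score 56.1). Mybph (ENSMUSG00000042451), myosin-binding protein H, had a region annotated as promoter at +2.54 kb (chr1:134195228-134196750) with 103, 85.0 and 75.7 (mean 88.0 ± 13.9). For both genes replicate 1 was highest and replicate 3 lowest, the reverse of Tpm2, so no library was highest throughout.

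Titin and the M-band had 1 of 5 genes bound, Ttn itself (ENSMUSG00000051747). Its promoter region (chr2:76981397-76983366, +0.166 kb) scored 104, 52.8 and 56.1 in replicates 1, 2 and 3 (mean 71.0 ± 28.7). The peaks of replicates 2 and 3 did not overlap each other and were joined by the wider peak of replicate 1, and the region had the widest spread of peak midpoints at these genes (1276 bp, against a median of 110 bp over the 20 regions). Myom2 and Myom3, which encode myomesins that crosslink myosin at the M-band, had a peak in replicate 1 alone.

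Of Z-disc genes 3 of 17 were bound, and the regions with the 2 highest mean scores of the list lay at Flnc and Actn2. Flnc (ENSMUSG00000068699) encodes filamin C, which crosslinks actin at the Z-disc edge, and its exon 2 of 48 (chr6:29438483-29440491, +6.23 kb) scored 242, 272 and 101 in replicates 1, 2 and 3 (mean 205 ± 91.1). It ranked 105 among 1986 consensus regions of all genes. A neighbouring Flnc region annotated as promoter (chr6:29435543-29436662, +2.85 kb) scored 76.4, 88.1 and 101 (mean 88.4 ± 12.2). Actn2 (ENSMUSG00000052374), alpha-actinin-2, which ties thin filaments to the Z-disc, had a region in intron 1 of 20, +28.4 kb from its start (chr13:12311859-12312749), with 133, 118 and 193 (mean 148 ± 39.4). Flnc and Actn2 were the sole genes of the list above a score of 100 in every library. Synpo2 (ENSMUSG00000050315), an actin-binding Z-disc protein also called myopodin, had a region +143 kb from the RefSeq start (chr3:123092153-123093187), in intron 1 of 1 of the annotated transcript, with 107, 65.6 and 73.1 (mean 81.9 ± 22.1).

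Among desmin, chaperones, the methyltransferase and ubiquitin ligases, 2 of 7 genes were bound. Des (ENSMUSG00000026208) encodes desmin, the intermediate filament that links neighbouring Z-discs. Its promoter region, centred at -0.0115 kb (chr1:75359857-75360704), scored 84.2 in replicate 1 and 111 in replicate 3 (mean 97.4 ± 18.8, n = 2), without a peak in replicate 2. A distal region at -15.4 kb (chr1:75344351-75345398) was present in all 3, with 118, 93.7 and 67.3 (mean 93.0 ± 25.3). Both Des regions thus recurred, and they differed in replicate 2, where only the distal one had a listed peak. Smyd1 (ENSMUSG00000055027), a muscle lysine methyltransferase that helps to assemble myosin, had a promoter region at -0.349 kb (chr6:71262167-71263092) with 65.7 and 69.3 in replicates 1 and 3 (mean 67.5 ± 2.57, n = 2).

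**Figure D2:**
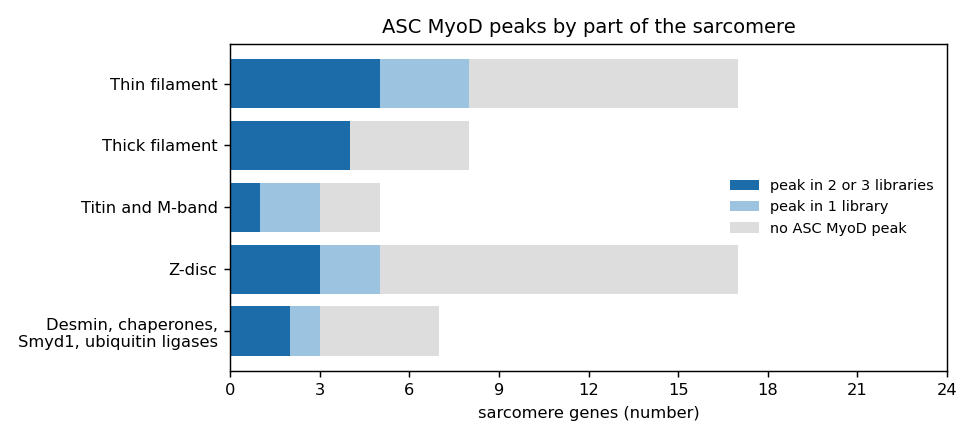
Number of sarcomere genes (horizontal axis) in each structural class, divided by the number of ASC MyoD libraries with a peak (dark blue, 2 or 3; light blue, 1; grey, none). The bound count is 5 of 17 for the thin filament, 4 of 8 for the thick filament, 1 of 5 for titin and the M-band, 3 of 17 for the Z-disc and 2 of 7 for the last class.

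The remaining 8 genes with ASC MyoD peaks had them in a single library. They were Cryab (alpha-B-crystallin, a small heat shock protein; replicate 1, promoter, score 74.3), Tnni2 (fast troponin I; replicate 3, promoter, 70.7), Myom2 (replicate 1, exon 6 of 6, 55.0), Nebl (replicate 3, exon 10 of 10, 53.9), Myom3 (replicate 1, promoter, 52.5), Ldb3 (a Z-disc PDZ-LIM protein; replicate 3, promoter, 51.9), Lmod3 (replicate 2, intron 2 of 2, 51.3) and Nrap (a nebulin-related anchoring protein; replicate 1, exon 12 of 42, 50.02). Of the 10 single-library regions, which include further peaks at Mybpc1 and Synpo2, 7 scored under 60, close to the lowest score that the lists hold.

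No peak in any library was given to 30 genes. These were the actins Acta1 and Actc1, the troponins Tnnc1, Tnnc2, Tnni1, Tnnt1 and Tnnt2, Tpm1 and Tmod4 of the thin filament. Of the thick filament they were Myl2, Myl3, Myl4 and Mybpc2, and of the M-band Myom1 and Obsl1. Z-disc genes with no peak were Actn3, Tcap, Csrp3, Myoz1, Myoz2, Myoz3, Myot, Pdlim3, Pdlim5, Pdlim7, Xirp1 and Xirp2. The chaperone Unc45b and the ubiquitin ligases Trim54 and Trim63 complete the 30. The absence of a listed peak says that none passed the threshold of the lists, not that the gene is unbound.

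Bound genes included fast-fibre isoforms and none of those listed as slow-fibre. Of 8 fast isoforms, Tnnt3, Myl1 and Mylpf were bound, Tnni2 had a peak in 1 library and the other 4 (Actn3, Tnnc2, Mybpc2 and Myoz1) had no peak. All 6 slow isoforms (Tnnc1, Tnni1, Tnnt1, Myl2, Myl3, Myoz2) and all 3 cardiac or embryonic isoforms (Actc1, Tnnt2, Myl4) had no peak. Mybpc1, which carries the slow-type name, was not placed in the slow list and was bound in 3 libraries. The difference between these short lists was not tested.

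Acta1, the skeletal actin of the thin filament, has a neighbour that changes its count. The annotation gave the peaks beside it to the promoter of Galnt2l (ENSMUSG00000092329). They were chr8:123895016-123896700 in replicate 1 (score 136), chr8:123894687-123895604 in replicate 2 (86.8) and chr8:123895698-123896647 in replicate 3 (68.4). Their midpoints were at -1.08, -0.371 and -1.40 kb from the start of Acta1, and the peak of replicate 2 covered that start. When peaks were instead given to every gene whose RefSeq span, extended by 5 kb on either side, they overlapped, Acta1 joined the 15 genes above and none was lost, which made 16 (29.6%, against 5.86% of protein-coding genes).

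At all 20 consensus regions the ASC and QSC MyoD libraries were separated, with a peak in 2 or 3 ASC libraries and in no QSC library. This pattern held for 1976 of 4488 MyoD regions overall (44%), a base that includes regions with a peak in 1 library or in QSCs alone. Among the 1986 consensus regions of all genes, the matched base, 1976 had it. The pattern is thus the usual one for a consensus region and not particular to sarcomere genes. The nearest QSC MyoD peak to any of the 20 lay 525 kb away, and the median distance was 2769 kb. By two-sided Fisher's exact test on libraries with and without a peak, 3 against 0 gives p = 0.1, the smallest that 3 libraries against 3 allow (Benjamini-Hochberg adjusted p = 0.404 over all regions), and 2 against 0 gives p = 0.4 (adjusted p = 0.890). No MyoD region, at these genes or elsewhere, passed 0.05 by this exact test, with adjusted or unadjusted values (0 and 0 of 4488). For MyoG the same pattern held for 9.42% of 2198 regions, of which 0 lay at a sarcomere gene.

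No consensus region of these genes carried both factors in ASCs, and few MyoD consensus regions of any gene did. All 20 consensus MyoD regions had no MyoG peak in the 3 ASC MyoG libraries, and 0 had peaks of both antibodies. Over all genes, 74 of 1985 MyoD consensus regions (3.73%) had a MyoG peak and 1911 had none, so 0 of 20 is near the share of all genes. The 1911 were 33.1% of the 5779 ASC regions, which include those with MyoD in 1 library or with MyoG alone. The nearest MyoG peak to a sarcomere consensus region lay 345 kb away (median 1190 kb). The lowest adjusted p of the two-sided Fisher's exact test over these regions was 0.514, and 0 regions passed 0.05 adjusted or unadjusted. MyoG lists were shorter than MyoD lists, and the part that depth or antibody has in this was not tested.

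Promoters held the larger share of the sarcomere regions. By the study's annotation, which counts as promoter what lies within 3 kb of a transcription start, 11 of 20 consensus regions were at promoters (55%, 95% Wilson interval 34.2 to 74.2%), 5 in introns (25%), 3 distal (15%) and 1 in an exon (5%). Over all 1986 consensus regions the shares were 22.7% promoter, 35.2% intron, 35.5% distal and 4.03% exon. Within 1 kb of a start were 8 of 20, or 40%, beside 13.6% of all consensus regions. Neighbouring regions of 1 gene are not independent, and the shares were given no test.

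Measured from the nearest start of the gene in the RefSeq promoter table, which held one for 17 of the 20 regions, 5 regions had their centre within 1 kb, 9 lay over 1 kb downstream and 3 over 1 kb upstream. The regions of Lmod2, Mybph and Flnc that the annotation calls promoter lay over 1 kb downstream of that start. The Mylpf region, counted as upstream, lies inside the wider RefSeq span of its gene, which begins before the start in the promoter table. By this measure, binding near the start proper was seen at Des, Mybpc1, Smyd1, Tpm2 and Ttn, whose windows are printed above. Neb and Tnnt3 have no start in the promoter table and were not measured, though the annotation places a consensus region of each within 1 kb of a start.

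**Figure D3:**
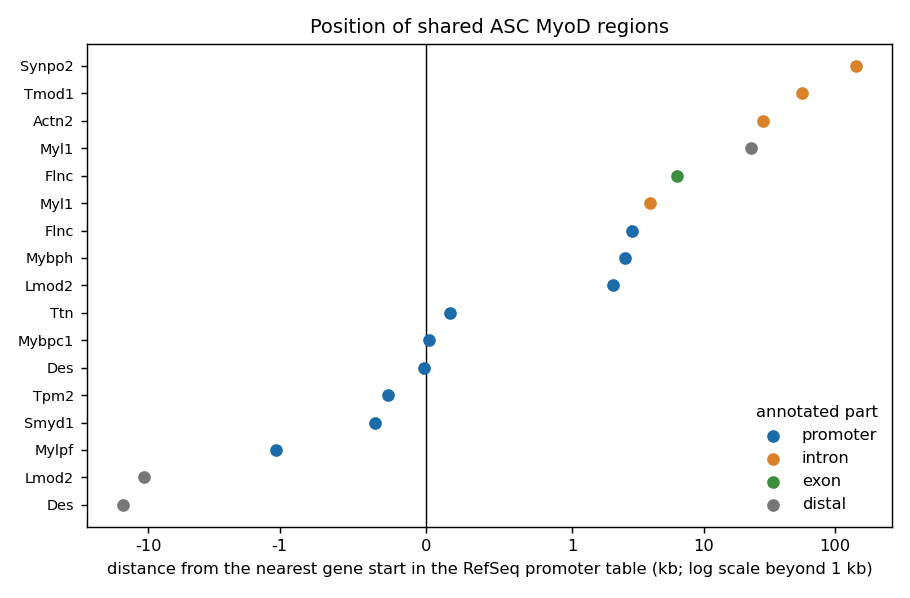
Distance of each of 17 consensus ASC MyoD regions from the nearest start of its gene in the RefSeq promoter table (horizontal axis, kb, linear within 1 kb and logarithmic beyond; negative is upstream), with the colour giving the annotated gene part. Regions run from -15.4 kb (distal, Des) to +143 kb (intron, Synpo2), and 5 lie within 1 kb of the start.

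In score, sarcomere regions were ordinary. Their mean scores ran from 63.7 to 205 with a median of 85.0, beside 82.3 for all consensus regions. Ranked within each list, they had a median percentile of 58.6 (range 35.2 to 90.6), beside 55.6 for all, and 13 of 20 were above the middle of their lists, beside 59.1% of all consensus regions. Of the 66 ASC MyoD peaks at sarcomere genes, 38 were above the median of their own list. At a score of 80 or more (p-value 1e-08), 8 genes remained bound in at least 2 libraries (Actn2, Des, Flnc, Lmod2, Mybph, Myl1, Tmod1 and Tpm2), or 14.8%, beside 2.88% of protein-coding genes. Which libraries missed a consensus region also differed, with 1 region missing in replicate 1, 3 in replicate 2 and 0 in replicate 3.

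**Figure D4:**
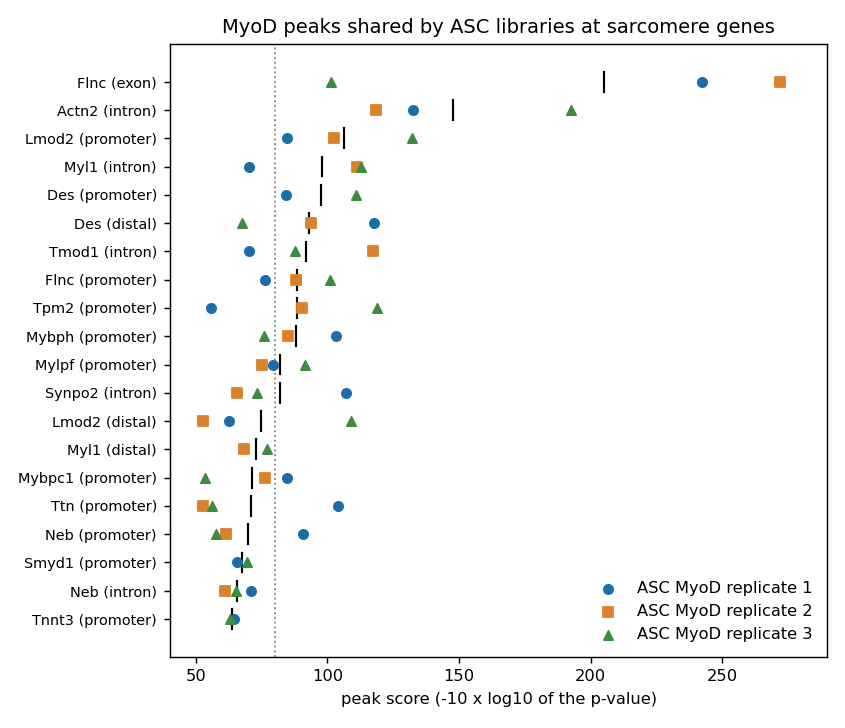
Peak score (horizontal axis, minus 10 times the log10 p-value) in each ASC MyoD library at the 20 consensus regions of sarcomere genes, with a vertical tick at the mean and a dotted line at the stricter score of 80. The Flnc exon region (mean 205) and the Actn2 intron region (mean 148) stand above the rest, whose means lie between 63.7 and 106.

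Gene length moved with binding, and shares are given on either side of the protein-coding median. The median length of sarcomere genes was 20.9 kb, against 17.1 kb for protein-coding genes, and that of the bound genes was 28.7 kb against 20.7 kb for the others. Of the 32 sarcomere genes above the protein-coding median, 10 were bound (31.2%), beside 10.3% of all genes above it. Of the 22 up to that median, 5 were bound (22.7%), beside 2.42% of all such genes. The share at sarcomere genes was thus above that of all genes on both sides of the median.

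A wider list of 60 sarcomere-associated genes, also chosen with earlier results of these data known, was read in the same way. Of these, 12 (20%) were bound in at least 2 ASC MyoD libraries, beside 6.34% of protein-coding genes. A further 3 (Igfn1, Speg and Svil) had a peak in 1 library, 45 had none and 0 had a MyoG or QSC peak. The highest was the promoter of Plec, which encodes plectin, a linker of intermediate filaments to the Z-disc, with 301, 257 and 285 in replicates 1, 2 and 3 (mean 281 ± 22.4). Next came the promoter of Klhl31, a kelch-family gene (mean 248 ± 27.2), and that of Sync, which encodes the desmin partner syncoilin (mean 142 ± 27.7). The Plec and Klhl31 means were above that of every region of the main list, and the Sync mean was below those of the Flnc exon and Actn2 regions alone. The others were Cfl2 (muscle cofilin, 126 ± 55.0), Tln2 (talin-2, 125 ± 0.803), Lmod1 (114 ± 51.2, n = 2), Klhl40 (a stabiliser of thin filament proteins, 94.6 ± 2.22), Fbxo32 (the ubiquitin ligase atrogin-1, 92.9 ± 35.3), Bin1 (a T-tubule protein, 90.4 ± 24.2), Synpo2l (90.1 ± 27.1), Mylk4 (a myosin light chain kinase, 74.5 ± 4.69) and Mypn (myopalladin, 74.3 ± 10.3, n = 2).

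E-box letters were common in the promoter windows of the list whether or not the gene was bound. RefSeq promoter windows were found for 41 of the 54 genes (51 windows, as a gene can have several starts), and in the 250 bases before the start 76.5% held CANNTG, beside 66.2% of all 32851 windows. The form CAGCTG was in 33.3% of sarcomere windows and 13.0% of all, and CAGGTG or its other strand CACCTG in 29.4% and 17.2%. In windows of bound genes CAGCTG was in 6 of 14 (42.9%) and in those of the other sarcomere genes in 11 of 37 (29.7%). For CAGGTG or CACCTG the order was the other way, with 2 of 14 (14.3%) and 13 of 37 (35.1%). For CANNTG it was also the other way, with 71.4% and 78.4%. Over all genes, windows crossed by a peak in at least 2 ASC MyoD libraries held CANNTG in 82.4% and CAGCTG in 38.6% of 153 cases. Most consensus regions lie outside these windows, and their own sequence was not analysed here.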

How the data were processed

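Chromatin from sorted QSCs and ASCs was cross-linked with 1% formaldehyde, sheared to about 500 bp and precipitated with antibodies to MyoD or MyoG. The submitters' processing notes name BWA 0.7.5, MACS, deepTools 3.5.0 and mm10, with no role or order. Which MACS version was run, whether inputs served as background and how peaks were filtered are not given in the sources used here. The authors deposited 1 peak list per library, each peak with a gene, a gene part, start and end positions in bp, and a score of minus 10 times the log10 p-value (lowest 50). The lists hold no read counts, so depth is unknown, scores depend on it, and intervals cover counting error of peaks or genes only. The lists hold no columns of the authors' comparisons. The 2 input libraries were not used here.

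Sample titles gave the groups and replicate numbers. Within a group, no peak had an identical position and score in 2 libraries. Peaks of the 6 libraries of an antibody (or of the 6 ASC libraries) overlapping by at least 1 bp were merged into regions. Bound genes had a peak in at least 2 of 3 libraries. Of 4385 gene names in the lists, 93.6% matched the RefSeq table of GRCm38.p6, which is mm10. The 54 genes and all other lists were chosen with earlier results of these data known. Every gene of the list is named, and of the other genes those bound in at least 2 libraries, with those in 1 library added after their values were seen. Presence of peaks was compared by two-sided Fisher's exact test per region with Benjamini-Hochberg adjustment over all regions.

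Alternatives were other library minimums, a score of 80, distal peaks left out, a gap of 500 bp, an overlap of 50% of both peaks, promoters within 1 kb, another denominator, a block on replicate number and leaving out libraries. Chosen after seeing the data were a shared region, spans extended by 5 kb, the score of 80 and the block in the antibody comparison, and leaving out libraries for that comparison, the promoter share and the score. The region steps were tested on simulated peak lists with widely separated regions, in which the peaks of a region always overlapped. Peaks joined only through another peak, as at Ttn, were not simulated. Python 3.11.15, pandas 2.3.3, numpy 2.4.6 and scipy 1.17.1 were used.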

Additional observations from a re-analysis of the deposited data

How the results depend on the processing

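Of 69 alternatives computed, 16 moved their result, by over 1.5 times for counts and by more than the spread between libraries or the interval for other values, and 53 did not. The ASC MyoD count of 15 bound sarcomere genes became 23 with a peak in at least 1 library and 8 at a score of 80, and ran from 13 to 15 when 1 library was left out. The score of 80 also lowered the consensus regions, those with no QSC peak and those with no MyoG peak from 20 to 10 each, while leaving out 1 library gave 16 to 19 for the first and 16 to 20 for the other 2 results. The ASC MyoG count of 1 gene, Nebl, became 2 with a peak in at least 1 library and 0 with all 3 libraries required, at a score of 80, without distal peaks, with a shared region required or with extended spans, and ran from 0 to 1 when 1 library was left out (0 without replicate 1 and 0 without replicate 2). The QSC counts were 0 under every alternative run. As no QSC list held a peak given to these genes, only the extended spans were able to change this. The promoter share ran from 43.8 to 57.9% and the median percentile, 58.6 with all libraries, from 58.7 to 62.7 when 1 ASC MyoD library was left out. The background share of 6.34% became 39.4% among genes with a peak in any list.

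With a block on replicate number, 20 regions had ASC and no QSC MyoD peaks, and 20 had MyoD and no MyoG peaks. As no QSC MyoD or ASC MyoG peak lay at any of these regions, the block was unable to change a call. Deviations of same-numbered ASC and QSC libraries correlated between -0.00520 and 0.00491 for MyoD and between 0.000303 and 0.0145 for MyoG, and the numbers were not taken to pair the samples.

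With 3 libraries a group the smallest p-value of the exact test is 0.1, so no region was able to pass 0.05. Absence of a peak depends on the score threshold and on an unknown depth, and peaks belong to genes by the annotation alone, as at Acta1. A score is no measure of occupancy.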

Other observations

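Sites of MEF2 and serum response factor, which act at many muscle promoters, were also looked for by their consensus letters in the 250 bases before the RefSeq gene starts, a choice made after seeing the data. The MEF2 consensus was in 4 of 51 sarcomere windows (7.84%), beside 0.508% of all windows. The CArG box, the site of serum response factor, was in 7 of 51 (13.7%), beside 1.47% of all windows. None of the 14 windows of genes bound in at least 2 ASC MyoD libraries held a CArG box (0 of 14), while 7 of the 37 windows of the other sarcomere genes did (18.9%). For MEF2 the order was the other way, with 2 of 14 (14.3%) and 2 of 37 (5.41%). Of the 14 windows, only 5 were crossed by a peak of their gene in at least 2 ASC MyoD libraries. The 37 include the window of Acta1, which had MyoD peaks beside its start that the annotation gave to Galnt2l. Of the windows of any gene crossed by MyoD peaks in at least 2 ASC libraries, 2.61% held a CArG box and 3.27% a MEF2 consensus. These shares are given without a test, and several windows can belong to 1 gene.

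Single-library ASC MyoD peaks given to other genes lay within 5 kb of the span of 3 sarcomere genes. They were a peak at Gm15826 near Myl1 (replicate 2, score 99.8), a peak at Tstd2 beyond the end of Tmod1 (replicate 1, score 66.4) and a peak at Cx3cr1 near Xirp1 (replicate 2, score 60.5).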
